A study of Mus musculus with 16 samples.

Results

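The genes described here were 9 microglial and complement genes, Cx3cr1, P2ry12, Tmem119, Csf1r, C1qa, C1qb, C1qc, Aif1 and Trem2, chosen by name. They were 9 of the 55266 genes, and 30 of the 142435 transcripts, quantified by RNA-seq in mouse frontal cortex (FC) and cerebellum. Every transcript of these genes in both count matrices was taken, singly and summed per gene. The tissues came from adult mice lacking Upf3b (genotype label Upf3b_KO, here Upf3b-KO) and from littermate controls (Ctrl). Upf3b is an X-linked gene encoding an adaptor of nonsense-mediated RNA decay (NMD), which degrades a subset of mRNAs, and it was absent from all cells and not only from microglia. There were 16 libraries, 4 for each tissue and genotype. The labels gave no age, sex, strain, batch or animal number and did not tie libraries to animals, so the p-values below measure only the spread between these libraries, which may be technical in part. Both tissues were taken from one set of mice by the study's description, so libraries of the tissues may share animals, and the tests between tissues and of the interaction treat them as separate.

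Microglia are the resident macrophages of the brain. Csf1r, the receptor for the growth factors CSF1 and IL-34, keeps them alive, Cx3cr1 is the receptor for the neuronal ligand fractalkine, and P2ry12 is a purinergic receptor that senses extracellular nucleotides. Tmem119 encodes a membrane protein widely used to mark microglia, Aif1 encodes the cytoskeletal protein IBA1, and Trem2 is a lipid-sensing receptor that signals through the adaptor TYROBP. C1qa, C1qb and C1qc encode the chains of C1q, the recognition molecule that starts the classical complement cascade, and microglia are its main source in the adult brain.

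Sequencing depth was 27660078 to 35238677 counts in 15 libraries, where 3 counts corresponded to 0.0851 to 0.108 CPM (counts scaled to a common library total). Upf3b-KO library 1 of the cerebellum held 64981 counts, so that 3 counts were 46.2 CPM there, and it was left out of every value below unless named. Upf3b-KO cerebellum is thus given with n = 3 (libraries 2 to 4) and the other groups with n = 4. Upf3b itself was at 14.8 ± 0.64 CPM in Ctrl and 0.559 ± 0.26 CPM in Upf3b-KO frontal cortex (SD, n = 4 each). Cerebellar Upf3b was at 22.7 ± 1.2 CPM in Ctrl (n = 4) and 0.737 ± 0.2 CPM in Upf3b-KO (n = 3). The biological coefficient of variation over all genes was 3.87% to 3.99%, and with so narrow a spread a large share of all genes passed each comparison. Each count of members is therefore given beside that share. The 9 genes were covered by 59 to 5064 counts in the 15 libraries.

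The 3 C1q genes lay side by side on the reverse strand of chromosome 4 (GRCm39), C1qb at 136606009 to 136613511, C1qc at 136616466 to 136620376 and C1qa at 136623223 to 136626161. They spanned 20153 bases, with 2954 bases between C1qb and C1qc and 2846 bases between C1qc and C1qa. Trem2 (chromosome 17, 48653429 to 48661175, forward strand) and Aif1 (chromosome 17, 35387384 to 35395053, reverse strand) had the largest estimates by genotype. The 250 bases upstream of the start of one transcript of each of these 5 genes are shown, because the C1q genes moved together in cerebellum and Aif1 and Trem2 moved most. In cerebellum Tmem119 (log2 0.42) and Csf1r (log2 0.41) rose by as much as C1qb (log2 0.41), and their windows are not shown. The windows shown run 5′ to 3′ on the strand of the gene, and capitals mark matches to the motifs searched. The windows were chr4:136626162-136626411 for C1qa, chr4:136613512-136613761 for C1qb and chr4:136620377-136620626 for C1qc, all on the reverse strand, with chr17:48653179-48653428 on the forward strand for Trem2 and chr17:35392255-35392504 on the reverse strand for Aif1.
C1qa: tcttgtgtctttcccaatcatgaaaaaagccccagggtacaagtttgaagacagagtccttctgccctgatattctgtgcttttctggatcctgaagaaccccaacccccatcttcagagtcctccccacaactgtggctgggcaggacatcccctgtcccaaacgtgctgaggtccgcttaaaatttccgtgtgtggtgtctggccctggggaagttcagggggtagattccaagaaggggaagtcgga
C1qb: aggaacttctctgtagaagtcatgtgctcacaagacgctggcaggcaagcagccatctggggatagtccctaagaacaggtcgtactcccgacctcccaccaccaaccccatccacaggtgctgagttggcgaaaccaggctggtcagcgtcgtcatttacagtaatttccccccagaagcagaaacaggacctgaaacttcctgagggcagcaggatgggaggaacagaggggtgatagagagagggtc
C1qc: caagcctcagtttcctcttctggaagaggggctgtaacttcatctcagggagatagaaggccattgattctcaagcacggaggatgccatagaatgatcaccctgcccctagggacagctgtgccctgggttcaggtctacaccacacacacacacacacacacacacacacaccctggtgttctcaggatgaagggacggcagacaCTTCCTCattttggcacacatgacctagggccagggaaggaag
Trem2: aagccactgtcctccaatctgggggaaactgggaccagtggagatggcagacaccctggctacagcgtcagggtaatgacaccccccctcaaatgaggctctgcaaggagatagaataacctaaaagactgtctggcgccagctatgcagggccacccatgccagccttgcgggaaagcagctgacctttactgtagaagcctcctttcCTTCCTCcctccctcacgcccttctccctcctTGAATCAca
Aif1: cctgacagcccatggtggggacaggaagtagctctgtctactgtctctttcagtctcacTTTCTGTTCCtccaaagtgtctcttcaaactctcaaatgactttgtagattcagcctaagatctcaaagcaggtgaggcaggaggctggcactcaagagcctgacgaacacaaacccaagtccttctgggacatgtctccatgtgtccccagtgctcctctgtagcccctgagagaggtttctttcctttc

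The motifs were searched on both strands in 8 of the members, Csf1r not among them. GAGGAAG, letters bound by the myeloid factor PU.1, stood in 10.2% of the same windows of 19830 genes, the composite motif of PU.1 and IRF factors in 2.31%, and TGANTCA, letters bound by AP-1 factors, in 5.0%. C1qc held the PU.1 letters, read on the other strand as CTTCCTC, 43 to 37 bases before the start, and Trem2 held them 41 to 35 bases before the start. The composite letters stood in the Aif1 window as TTTCTGTTCC, 191 to 182 bases before the start. The AP-1 letters stood as TGAATCA in the Trem2 window, 9 to 3 bases before the start, and as TGAGTCA in the Tmem119 window, 245 to 239 bases before it. The windows of C1qa, C1qb, Cx3cr1 and P2ry12 held none of the 3. A match describes these letters only.

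All 9 genes were detected in each of the 15 libraries. Levels of different genes are compared in TPM, which divides counts by transcript length before scaling to the library. The lengths are those of GENCODE vM39, a release other than the Ensembl one the study names. The order with the study's lengths was not examined. In Ctrl frontal cortex P2ry12 was highest at 118.5 ± 2.7 TPM, followed by C1qa (80.6 ± 3.6), C1qc (60.8 ± 2.3) and C1qb (54.01 ± 1.6, SD, n = 4 each). Csf1r (51.8 ± 1.0 TPM), Tmem119 (34.95 ± 0.41), Trem2 (22.8 ± 2.5), Aif1 (15.05 ± 2.2) and Cx3cr1 (9.69 ± 1.2) came after them, and C1qb and Csf1r were the only neighbours whose libraries overlapped. The order was the same in Ctrl cerebellum, where P2ry12 (31.3 ± 2.7 TPM) and C1qa (30.9 ± 2.5 TPM, SD, n = 4 each) overlapped. In Upf3b-KO cerebellum C1qa stood first at 40.1 ± 4.0 TPM and P2ry12 next at 37.7 ± 0.76 TPM (SD, n = 3 each), within their spread, as were C1qc and C1qb. In Upf3b-KO frontal cortex Csf1r (58.7 ± 0.54 TPM) and C1qb (58.1 ± 2.1 TPM, SD, n = 4 each) had changed places, also within their spread.

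The chains of C1q are assembled in equal numbers, and their transcripts kept nearly fixed proportions. The ratio of C1qa to C1qb in TPM was 1.49 ± 0.11 in Ctrl and 1.47 ± 0.11 in Upf3b-KO frontal cortex (SD, n = 4 each). Its value in cerebellum was 1.51 ± 0.089 in Ctrl (n = 4) and 1.49 ± 0.093 in Upf3b-KO (n = 3). The ratio of C1qc to C1qb lay between 1.06 ± 0.066 in Upf3b-KO cerebellum and 1.14 ± 0.073 in Upf3b-KO frontal cortex. For both ratios the ranges of the 4 groups overlapped.

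**Figure D1:**
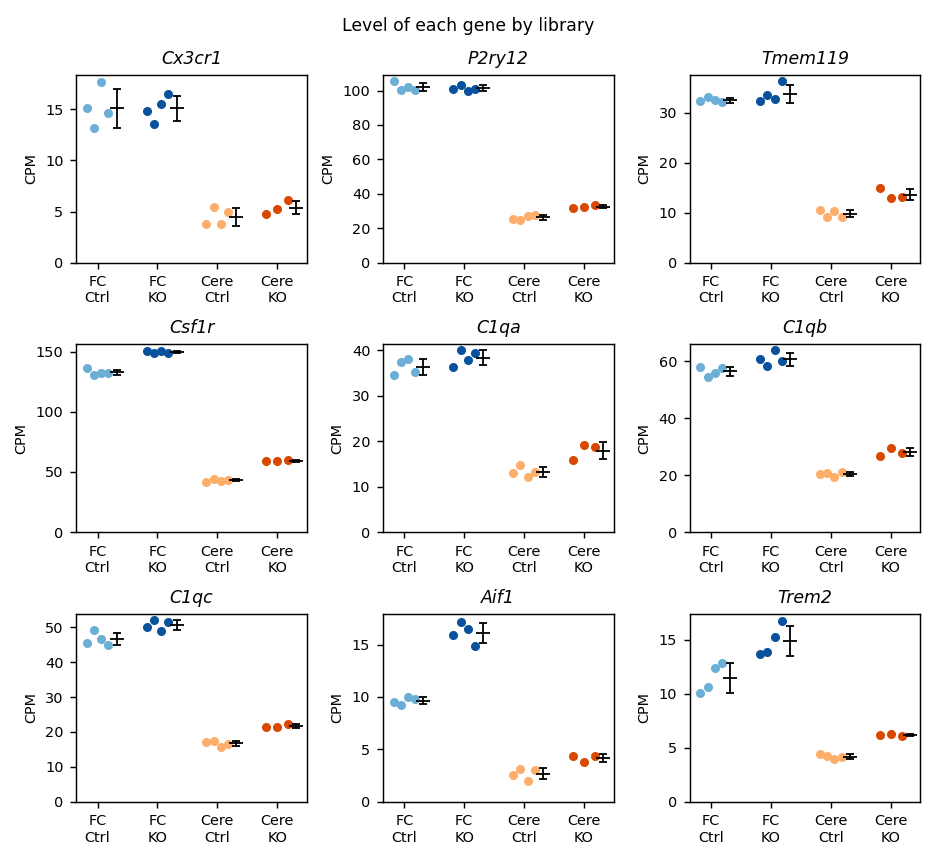
Level of each of the 9 genes in CPM (vertical axis) in the 4 libraries each of frontal cortex Ctrl, frontal cortex Upf3b-KO and cerebellum Ctrl and the 3 deep libraries of cerebellum Upf3b-KO (points), with mean and SD. Each gene was lower in cerebellum than in frontal cortex, and in cerebellum the Ctrl and Upf3b-KO points did not overlap for any gene but Cx3cr1.

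Whether the genes differed between the tissues was examined first in Ctrl mice. Each of the 9 genes was lower in cerebellum, by 2.78-fold (C1qa) to 3.96-fold (P2ry12). P2ry12 was at 105.3, 100.5, 101.8 and 100.1 CPM in frontal cortex and at 25.1, 24.99, 27.3 and 27.7 CPM in cerebellum (log2 −1.99, SE 0.034, adjusted p = 6.23e-26). Aif1 (log2 −1.88, SE 0.113), Cx3cr1 (log2 −1.79, SE 0.117), Tmem119 (log2 −1.75, SE 0.0598) and Csf1r (log2 −1.65, SE 0.0245) followed P2ry12 in size. The C1q genes and Trem2 differed least, at log2 −1.475 for C1qa, −1.50 for C1qb, −1.51 for C1qc and −1.485 for Trem2. C1qb, for example, was at 58.03, 54.6, 56.1 and 57.7 CPM in frontal cortex and at 20.4, 20.9, 19.4 and 21.1 CPM in cerebellum. In bulk tissue, fewer cells of a type and less RNA per cell cannot be told apart.

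All 9 passed the quasi-likelihood F test of edgeR at a Benjamini-Hochberg adjusted p under 0.05, in a direction in which 37.3% of the 19831 genes tested passed. All 9 also met the threshold of the study, an adjusted p under 0.01 and over 2-fold, against 16.8% of all genes. The median log2 value was −1.65 over the 9 genes and −0.025 over all genes.

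In Upf3b-KO mice, a comparison that shares no library with the one above, the 9 genes were lower in cerebellum by 2.15-fold (C1qa, log2 −1.10, SE 0.0639) to 3.91-fold (Aif1, log2 −1.97, SE 0.116). All 9 passed, against 34.4% of all genes, and the tissues did not overlap in CPM for any of the 9, as for 33.7%. The median log2 value was −1.32. C1qb, at 60.9, 58.5, 63.9 and 60.0 CPM in frontal cortex and 26.7, 29.7 and 27.8 CPM in cerebellum, differed 2.18-fold here and 2.82-fold in Ctrl.

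**Figure D2:**
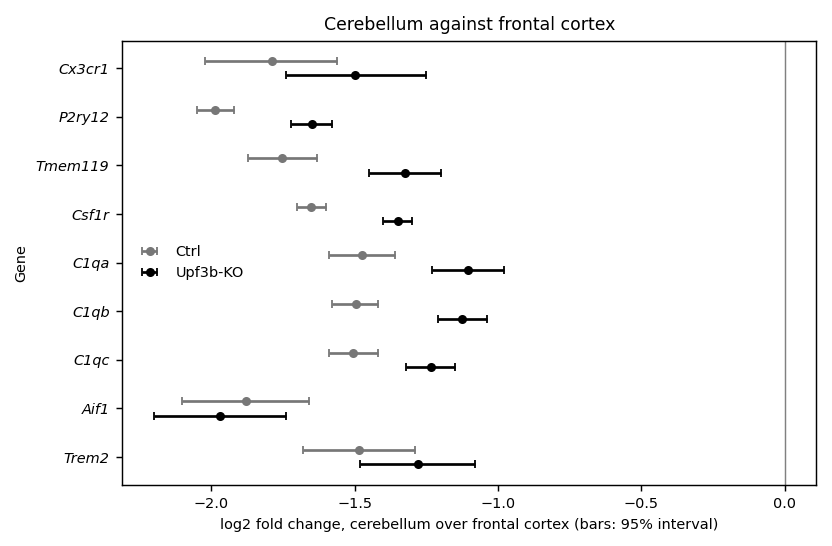
Difference of each gene between cerebellum and frontal cortex (log2, horizontal axis) in Ctrl and Upf3b-KO mice, with 95% intervals from the standard errors. Values left of 0 are lower in cerebellum, and all lie between −1.99 and −1.10.

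Upf3b-KO was then compared with Ctrl within frontal cortex, where Aif1 and Trem2 rose most. Aif1 was at 9.52, 9.28, 10.03 and 9.81 CPM in Ctrl and at 15.9, 17.2, 16.5 and 14.9 CPM in Upf3b-KO, 1.58-fold higher (log2 0.66, SE 0.0705, adjusted p = 5.95e-08). Trem2 was at 10.1, 10.6, 12.4 and 12.9 CPM in Ctrl and at 13.7, 13.9, 15.3 and 16.8 CPM in Upf3b-KO, 1.23-fold higher (log2 0.30, SE 0.0874, adjusted p = 0.00641). For both genes each Upf3b-KO library lay above each Ctrl library. Csf1r rose by a smaller amount, from 136.0, 130.6, 132.4 and 132.0 CPM to 150.8, 148.7, 150.2 and 149.1 CPM (log2 0.10, SE 0.0209, adjusted p = 0.000462), again without overlap.

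P2ry12 was level in CPM, at 105.3, 100.5, 101.8 and 100.1 in Ctrl and 100.8, 103.5, 99.6 and 101.2 in Upf3b-KO. After TMM scaling, the trimmed-mean factors that the test uses, it passed with a small lower value (log2 −0.085, SE 0.0253, adjusted p = 0.00729), and with library totals alone, an alternative chosen after seeing the data, it did not (log2 −0.0092, adjusted p = 0.784). The C1q genes did not pass, with TMM-scaled log2 values of 0.006 for C1qa (95% interval −0.0792 to 0.0912), 0.027 for C1qb (−0.0385 to 0.0933) and 0.046 for C1qc (−0.0255 to 0.117). With library totals C1qb (log2 0.10, adjusted p = 0.0134) and C1qc (log2 0.12, adjusted p = 0.00756) passed. C1qc was at 45.5, 49.1, 46.6 and 45.03 CPM in Ctrl and at 49.96, 52.1, 49.04 and 51.5 CPM in Upf3b-KO, where the lowest Upf3b-KO library lay within the Ctrl range. Cx3cr1, at 15.1 ± 1.9 and 15.1 ± 1.2 CPM (log2 −0.078, SE 0.0825), and Tmem119, at 32.5 ± 0.48 and 33.7 ± 1.8 CPM (log2 −0.023, SE 0.044, SD, n = 4 each), did not pass, and the value of Tmem119 was log2 0.052 with library totals.

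In all, 3 of the 9 genes were higher in Upf3b-KO frontal cortex, in a direction in which 28.0% of 18218 genes passed, and 1 was lower, against 25.3%. Csf1r, C1qb, Aif1 and Trem2, 4 of the 9, did not overlap in CPM with Upf3b-KO higher, as for 33.1% of all genes. These shares are near those of all genes. With library totals in place of TMM 5 were higher, the C1q genes C1qb and C1qc among them, and P2ry12 was no longer called lower. By edgeR 0 of the 9 met the threshold of the study, which 9.16% of all genes met with higher values. The count was also 0 by DESeq2. The 4 with an unadjusted p under 0.05 by edgeR were those that passed after adjustment, where 28.0% of all genes were higher and 25.3% lower. The share of all genes at an unadjusted p was not taken.

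In cerebellum 8 of the 9 genes were higher in Upf3b-KO, by 1.2-fold (P2ry12) to 1.5-fold (Aif1). Aif1 was at 2.57, 3.12, 1.95 and 3.07 CPM in Ctrl and at 4.36, 3.75 and 4.38 CPM in Upf3b-KO (log2 0.58, SE 0.162, adjusted p = 0.00403). Trem2 was at 4.43, 4.2, 3.93 and 4.16 CPM in Ctrl and at 6.18, 6.27 and 6.11 CPM in Upf3b-KO (log2 0.51, SE 0.111, adjusted p = 0.000494). Both again had the largest estimates, and neither overlapped. Csf1r rose from 42.01, 44.2, 42.7 and 43.6 CPM to 58.7, 59.1 and 59.8 CPM with very little spread in either group (log2 0.41, SE 0.0348, adjusted p = 5.16e-09).

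The C1q genes rose together in cerebellum. C1qa was at 13.05, 14.8, 12.2 and 13.2 CPM in Ctrl and at 15.9, 19.2 and 18.7 CPM in Upf3b-KO (log2 0.39, SE 0.0817, adjusted p = 0.000399). C1qb went from 20.4, 20.9, 19.4 and 21.1 CPM to 26.7, 29.7 and 27.8 CPM (log2 0.41, SE 0.0545, adjusted p = 2.41e-06). C1qc went from 17.2, 17.3, 15.6 and 16.6 CPM to 21.5, 21.4 and 22.3 CPM (log2 0.33, SE 0.0592, adjusted p = 7.7e-05). For each of the 3 the lowest Upf3b-KO library lay above the highest Ctrl library.

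Among the surface markers, Tmem119 was at 10.6, 9.17, 10.3 and 9.15 CPM in Ctrl and at 14.9, 12.9 and 13.1 CPM in Upf3b-KO (log2 0.42, SE 0.0881, adjusted p = 0.000382). P2ry12 was at 25.1, 24.99, 27.3 and 27.7 CPM in Ctrl and at 31.8, 32.5 and 33.3 CPM in Upf3b-KO (log2 0.26, SE 0.0504, adjusted p = 0.000163). Both were apart in every library. Cx3cr1, the member with the lowest level per length, was at 3.77, 5.44, 3.74 and 4.95 CPM in Ctrl and at 4.79, 5.24 and 6.1 CPM in Upf3b-KO. Its libraries overlapped and it did not pass (log2 0.22, SE 0.147, adjusted p = 0.201).

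The 8 genes compare with 33.1% of 17785 genes that passed in that direction and 31.3% that passed in the other. The same 8 did not overlap in CPM, as for 36.3% of all genes. The median log2 value was 0.41 over the 9 genes and 0.0077 over all genes. By edgeR 0 of the 9 met the threshold of the study, which 10.3% of all genes met with higher values. The count was also 0 by DESeq2. The 8 with an unadjusted p under 0.05 by edgeR were those that passed after adjustment, where 33.1% of all genes were higher and 31.3% lower. The share of all genes at an unadjusted p was not taken.

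**Figure D3:**
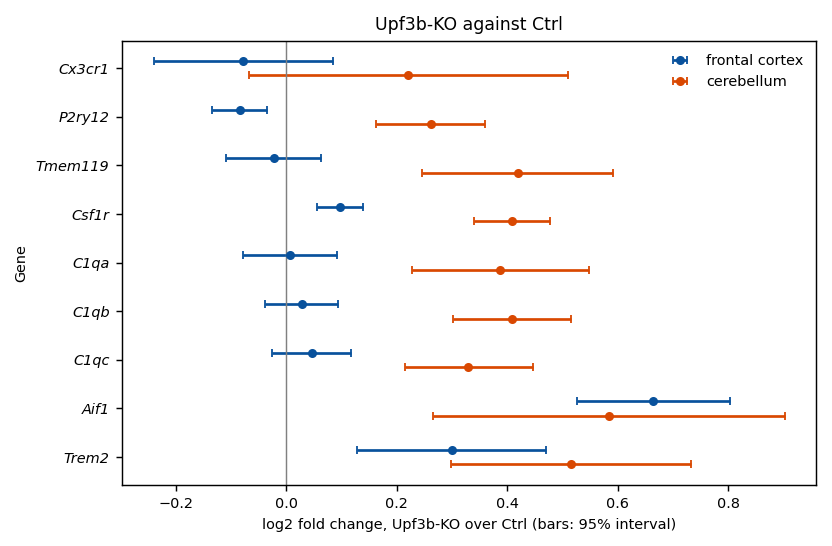
Difference of each gene between Upf3b-KO and Ctrl (log2, horizontal axis, TMM-scaled) in frontal cortex and cerebellum, with 95% intervals from the standard errors. The cerebellar values lie between 0.22 and 0.58 and those of frontal cortex between −0.085 and 0.66, with Aif1 highest in both.

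Markers of other cells moved with genotype in the same libraries, and their part in these results was not tested. The counts of these markers stand beside 28.0% of all genes higher and 25.3% lower in frontal cortex, and 33.1% higher and 31.3% lower in cerebellum. All 7 choroid plexus genes tested were higher in Upf3b-KO in both tissues. Their summed level was 20.8 to 22.1 CPM in Ctrl and 2165.3 to 2220.1 CPM in Upf3b-KO frontal cortex, and 31.3 to 35.6 and 1378.4 to 1401.3 CPM in cerebellum. Ttr, the transthyretin secreted by choroid plexus, was at 2.05 ± 0.19 CPM in Ctrl (n = 4) and 1209.3 ± 9.9 CPM in Upf3b-KO cerebellum (SD, n = 3). All 6 oligodendrocyte genes were higher in both tissues, with a sum of 7156.3 to 7221.0 CPM in Ctrl and 9742.1 to 9802.6 CPM in Upf3b-KO frontal cortex. In cerebellum the sum was 5738.9 to 5830.4 CPM in Ctrl and 13730.3 to 13830.7 CPM in Upf3b-KO. Their median log2 values were 0.41 and 1.13.

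The 5 red cell genes were lower in Upf3b-KO frontal cortex (489.1 to 503.9 CPM summed in Ctrl, 422.2 to 433.0 in Upf3b-KO) and higher in Upf3b-KO cerebellum (1254.7 to 1324.8 and 2402.3 to 2450.9 CPM), 5 of 5 each. Astrocyte genes were lower for 6 of 6 in frontal cortex and for 4 of 6 in cerebellum, where the other 2, Gfap (log2 0.41) and Slc1a2 (log2 0.36), were higher. Their summed level was 4492.1 to 4548.5 CPM in Ctrl and 3160.6 to 3184.9 CPM in Upf3b-KO cerebellum, and the glutamate transporter gene Slc1a3 fell most there (log2 −1.14, adjusted p = 2.85e-23), by more CPM than the sum did, from a mean of 2755.4 to 1296.9 CPM. Gfap was named after its values were seen. Endothelial genes were higher for 4 of 6 in each tissue. Of 6 neuronal genes, 2 were higher and 4 lower in frontal cortex, and 3 were higher and 3 lower in cerebellum. None of the genes of these 6 lists was at 0 in a whole group.

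Neuronal relatives of C1q, which share its globular domain, differed strongly between the regions. Cbln3 and Cbln1, cerebellins of cerebellar granule cells, were at 1836.9 ± 2.3 and 385.3 ± 3.8 CPM in Ctrl cerebellum (SD, n = 4 each). They were at 1001.1 ± 12.0 and 198.6 ± 5.7 CPM in Upf3b-KO cerebellum (SD, n = 3 each). Cbln2, another cerebellin, was at 23.5 ± 1.3 CPM in Ctrl frontal cortex, 0.189 ± 0.019 CPM in Ctrl cerebellum and 16.6 ± 0.86 CPM in Upf3b-KO cerebellum. Beside the same shares of all genes, 6 of 8 relatives were higher and 2 lower in Upf3b-KO cerebellum, and in Upf3b-KO frontal cortex 1 of 7 was higher (2 in 1 fit of the 15 libraries) and 5 were lower. The higher levels of the members in Upf3b-KO cerebellum thus stood beside lower Cbln1 and Cbln3 and higher Cbln2, and the part of tissue makeup was not tested.

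Border macrophages and blood leukocytes express several of the members too. The sum of 9 border macrophage genes was 19.1 to 21.7 CPM in Ctrl and 19.1 to 20.1 CPM in Upf3b-KO frontal cortex, and 12.5 to 14.1 and 12.5 to 13.6 CPM in cerebellum, so the ranges overlapped in both tissues. Of the 9, F13a1 was lower in frontal cortex (log2 −0.49, adjusted p = 0.0054) and Mrc1, named after its values were seen, was lower in cerebellum (log2 −0.49, adjusted p = 0.0218), and the others did not pass. Stab1 (−0.083 and 0.33) and Clec10a (0.30 and −0.52) gave log2 values that did not pass in either tissue. The sum of 9 blood leukocyte genes was 1.5 to 1.98 CPM in Ctrl and 1.7 to 2.6 CPM in Upf3b-KO frontal cortex, and 3.82 to 4.81 and 4.99 to 6.07 CPM in cerebellum, where 3 of 6 tested were higher and 1 was lower. No border macrophage gene was at 0 in a whole group, and 1 leukocyte gene was at 0 in Ctrl frontal cortex.

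Whether the genotype difference itself differed between the tissues was tested by an interaction term over the 15 libraries, given as the log2 difference in cerebellum minus that in frontal cortex. It passed with a positive value for 6 of the 9 genes, against 24.2% of all genes in that direction and 23.8% in the other. The values were 0.43 for Tmem119 (SE 0.0873), 0.37 for C1qa (SE 0.0888), 0.37 for C1qb (SE 0.0596), 0.34 for P2ry12 (SE 0.0504), 0.30 for Csf1r (SE 0.0355) and 0.27 for C1qc (SE 0.0627). The largest adjusted p among these was 0.00107, for C1qa. Aif1 (−0.091, 95% interval −0.411 to 0.229), Trem2 (0.20, −0.0716 to 0.481) and Cx3cr1 (0.29, −0.046 to 0.626) did not pass. The interaction is built from the same libraries as the comparisons within each tissue.

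An exon junction at least 50 nt downstream of the stop codon (dEJ) is a well-known mark of NMD targets. Of the 30 transcripts of the 9 genes, 17 had a complete coding end and none of these carried a dEJ, and 13 had no complete coding end. Retained introns were annotated for 4 of the 30. GENCODE vM39 held 74 transcripts of the 9 genes, and the count matrices held 30 of them. The 3 annotated with a dEJ were not in the matrices, so their levels could not be measured here. A mean of at least 1 CPM in some group was reached by 19 transcripts, and 11 stayed below it.

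C1qa-201 and C1qb-201 were the single listed transcripts of their genes, and C1qc-201, Tmem119-201 and Cx3cr1-201 carried nearly all counts of theirs. P2ry12-202 was at 83.1 ± 6.4 CPM and P2ry12-203 at 10.9 ± 3.9 CPM (SD, n = 4 each) in frontal cortex of Ctrl mice, and P2ry12-201, P2ry12-204 and P2ry12-205 did not exceed 6.17 CPM in any library. Csf1r-201 was at 123.9 ± 2.1 CPM and Csf1r-202 at 8.92 ± 3.5 CPM (SD, n = 4 each). The quantification divides reads shared by isoforms among them.

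In frontal cortex 2 of 20 transcripts tested were higher in Upf3b-KO, against 8.67% of 42318 transcripts, and these were Csf1r-201 (log2 0.083, SE 0.0206, adjusted p = 0.0287) and Aif1-206, whose Ctrl libraries were all listed at 0. The call of Csf1r-201 was lost when Ctrl library 1, 2 or 3 or Upf3b-KO library 1, 2 or 3 was left out (adjusted p = 0.0549 to 0.097), which left a count of 1. In cerebellum 8 of 18 were higher, against 12.3% of 44550 transcripts, namely P2ry12-202, Tmem119-201, Csf1r-201, C1qa-201, C1qb-201, C1qc-201, Aif1-201 and Trem2-201, with Aif1-201 again listed at 0 in all Ctrl libraries. Leaving out 1 library gave counts of 5 to 7, with 5 without Ctrl library 4, Upf3b-KO library 3 or Upf3b-KO library 4. The calls lost were those of Trem2-201 (adjusted p up to 0.121, without any library but Ctrl library 2), P2ry12-202 (up to 0.132, without Ctrl library 2 or 4 or any Upf3b-KO library), C1qa-201 (up to 0.0906, without Ctrl library 1, 3 or 4 or Upf3b-KO library 3 or 4) and Tmem119-201 (0.0707, without Upf3b-KO library 2). Calls were gained for P2ry12-204 without Ctrl library 3 and for Aif1-203 without Upf3b-KO library 2, both with lower values. Without the filter on low counts the frontal cortex count was 1. With a block for replicate number, fewer member transcripts passed in both tissues. Over all transcripts 3783 in place of 6920 then passed in frontal cortex, and 4643 in place of 10025 in cerebellum. Between the tissues in Ctrl, 14 of 20 transcripts were lower in cerebellum, against 18.5% of 53305 transcripts.

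**Figure D4:**
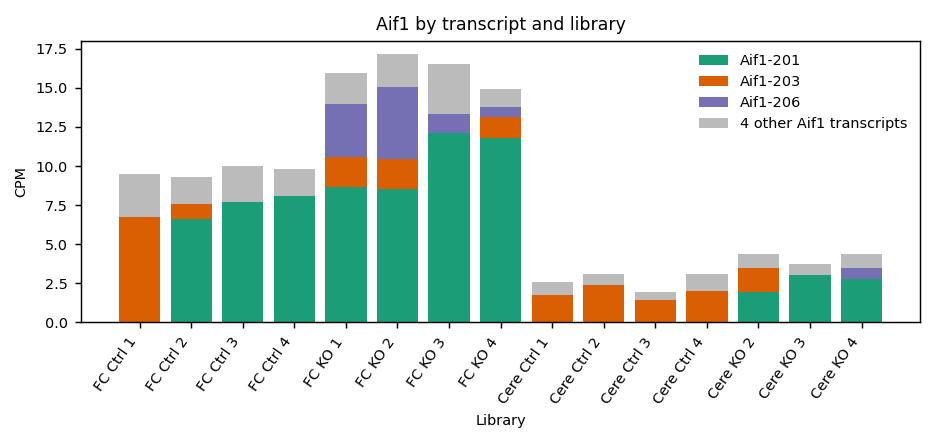
CPM of the Aif1 transcripts in each of the 15 deep libraries, stacked by transcript, with the 4 other Aif1 transcripts in grey. The total is higher in Upf3b-KO than in Ctrl in both tissues, while the split among Aif1-201, Aif1-203 and Aif1-206 varies between libraries of a group.

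The Aif1 transcripts were split differently among libraries of one group. In GENCODE vM39, Aif1-201, Aif1-203 and Aif1-206 share a coding length of 441 bases and a 3′ untranslated length of 2701 bases, with 7, 6 and 8 exons. In Ctrl frontal cortex Aif1-201 was listed at 0, 6.6, 7.67 and 8.07 CPM and Aif1-203 at 6.75, 0.991, 0 and 0 CPM, so that the library at 0 for the first was the highest for the second. Aif1-206 was listed at 0 in the 4 Ctrl libraries of frontal cortex and at 3.44, 4.6, 1.25 and 0.671 CPM in Upf3b-KO. In cerebellum Aif1-201 was listed at 0 in the 4 Ctrl libraries and at 1.96, 3.02 and 2.8 CPM in Upf3b-KO, while Aif1-203 was at 1.77, 2.4, 1.44 and 2.02 CPM in Ctrl and at 1.54, 0 and 0 CPM in Upf3b-KO. An exact 0 can be a failed estimate, and no fold is given for these. Summed, the 3 transcripts were at 7.52 ± 0.56 CPM in Ctrl and 14.04 ± 0.71 CPM in Upf3b-KO frontal cortex (SD, n = 4 each), and at 1.91 ± 0.41 CPM (n = 4) and 3.34 ± 0.28 CPM (n = 3) in cerebellum. The genotypes did not overlap in either tissue.

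Trem2 was carried mainly by Trem2-201 and Trem2-202, with coding lengths of 681 and 747 bases. Trem2-201 was at 5.77, 7.82, 9.3 and 8.62 CPM in Ctrl and 10.8, 8.55, 10.8 and 12.6 CPM in Upf3b-KO frontal cortex, where the genotypes overlapped. In cerebellum it was at 3.06, 3.42, 2.64 and 2.99 CPM in Ctrl and 4.7, 4.32 and 5.1 CPM in Upf3b-KO, without overlap (log2 0.63, SE 0.169, adjusted p = 0.0354). The retained-intron transcript Trem2-203 was at 1.42 ± 0.46 CPM in Ctrl and 1.52 ± 0.16 CPM in Upf3b-KO frontal cortex (SD, n = 4 each). Trem2-201 took 68.2% ± 8.3 of the counts of the gene in Ctrl frontal cortex (n = 4) and 76.1% ± 7.3 in Upf3b-KO cerebellum (n = 3), and the ranges of the 4 groups overlapped.

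Several members overlap a gene on the other strand. Aif1 overlaps the noncoding Gm17705, which was at 0.321 to 0.474 CPM in the group means, P2ry12 lies within Med12l, and Csf1r overlaps Hmgxb3. Cx3cr1 overlaps Gm33858, C1qb and C1qc overlap Gm69251, and Trem2 overlaps Gm65654. Use of the strand in counting was not stated, so reads of such pairs may not have been told apart. Tmem119 and C1qa overlap no other annotated gene.

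Further genes of microglia and complement were taken as lists. Their counts by genotype stand beside the shares of all genes given for the markers of other cells, and those between tissues in Ctrl beside 37.3% lower. All 14 homeostatic microglial genes tested were lower in Ctrl cerebellum than in Ctrl frontal cortex, with a median log2 value of −1.77. In Upf3b-KO cerebellum 11 of the 14 were higher than in Ctrl (median 0.51), and Gpr34 (log2 0.20, adjusted p = 0.11), Cd33 (log2 0.036, adjusted p = 0.826) and Mertk (log2 −0.15, adjusted p = 0.0627), named after their values were seen, did not pass. Without Ctrl library 4 or Upf3b-KO library 3 of cerebellum, or in 1 fit of the 15 libraries, 1 was called lower. In Upf3b-KO frontal cortex 7 were higher and 2 lower (median 0.11), the lower being Mertk and Cd33, and 1 was lower without Ctrl library 3 or 4 or Upf3b-KO library 3, or with library totals. Selplg, a selectin ligand, rose in both tissues (log2 0.21 and 0.59), and P2ry13, a purinergic receptor related to P2ry12, rose in cerebellum (log2 0.32, adjusted p = 0.00673) and did not pass in frontal cortex (log2 0.016, adjusted p = 0.8). Among list genes named after their values were seen, Sall1, a transcription factor of microglial identity, was at log2 0.22 in frontal cortex and 1.43 in cerebellum. Ltc4s, the leukotriene C4 synthase, was at 1.32 and 1.70, and Slc2a5, a fructose transporter, at 0.76 and 1.66, and all of these passed.

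Of 15 genes shared by myeloid cells, 14 were lower in Ctrl cerebellum than in Ctrl frontal cortex. In Upf3b-KO cerebellum 8 were higher and 1 was lower, and in Upf3b-KO frontal cortex 2 were higher and 2 lower. The frontal cortex count became 1 lower without Ctrl library 2 or 3 or Upf3b-KO library 1, 3 or 4. It was also 1 lower with library totals, with a replicate block, without the filter on low counts, or in 1 fit of the 15 libraries. Laptm5, a lysosomal membrane protein, rose in cerebellum (log2 0.42, adjusted p = 6.29e-06) and did not pass in frontal cortex (log2 −0.0039, adjusted p = 0.935). Ctss, the protease cathepsin S, rose in both (log2 0.11 and 0.41), and Itgam, the CD11b chain of complement receptor 3, rose in cerebellum (log2 0.43, adjusted p = 0.000463). Fcgr3, an immunoglobulin receptor named after its values were seen, was lower in both tissues (log2 −0.52 and −0.36). Ptprc (0.67), the leukocyte antigen CD45, and Ly86 (−0.19) were the other genes of the list to pass in frontal cortex, and they too were named after their values were seen.

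Of 7 ligands and adaptors of the receptors tested, 7 were lower in Ctrl cerebellum than in Ctrl frontal cortex, 4 were higher in Upf3b-KO cerebellum and 1 in Upf3b-KO frontal cortex, or 3 there with library totals. Cx3cl1, the fractalkine bound by CX3CR1, was at 675.4 ± 12.0 CPM in Ctrl frontal cortex and 85.4 ± 4.2 CPM in Ctrl cerebellum (SD, n = 4 each). It rose to 160.7 ± 1.0 CPM in Upf3b-KO cerebellum (n = 3, log2 0.86, adjusted p = 1.08e-14) and did not pass in frontal cortex (log2 0.011, adjusted p = 0.496). Il34, a ligand of CSF1R, rose in both tissues (log2 0.19 and 0.60). Csf1, the other ligand of CSF1R (log2 0.31), and Plcg2, a phospholipase downstream of TREM2 (log2 0.56), both named after their values were seen, rose in cerebellum. Inpp5d, a phosphatase of myeloid receptor signalling, did not pass in either (log2 0.11 and 0.20).

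Of 15 genes linked to microglial activation that were tested in frontal cortex, 5 were higher and 6 lower in Upf3b-KO. Of 15 tested in cerebellum, with Itgax in place of Il1b, 6 were higher and 5 lower in Upf3b-KO. Spp1, encoding osteopontin, was at 23.2 ± 0.79 CPM in Ctrl and 9.34 ± 0.3 CPM in Upf3b-KO frontal cortex (SD, n = 4 each, log2 −1.39, adjusted p = 2.6e-14). Its cerebellar level was 30.9 ± 0.35 CPM (n = 4) and 131.9 ± 2.3 CPM (n = 3, log2 2.05, adjusted p = 2.39e-20). Apoe, a lipid carrier made largely by astrocytes, was lower in both tissues (log2 −0.42 and −0.11). Lpl, a lipase, rose in cerebellum (log2 2.0, adjusted p = 7.02e-07) and did not pass in frontal cortex (log2 0.056, adjusted p = 0.357).

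Of 8 genes of the complement pathway beyond C1q tested in frontal cortex 2 were higher and 2 lower, or 1 higher without Ctrl library 2 or Upf3b-KO library 3 or 4. Of 7 tested in cerebellum 1 was higher and 1 lower. The lower call was lost without Ctrl library 1 or Upf3b-KO library 4, or with a replicate block. Named after their values were seen, Hc, the component C5, was higher (log2 1.85) and C2 lower (log2 −0.89) in frontal cortex, and C3, the central component, was higher (log2 1.375) and C2 lower (log2 −0.71) in cerebellum. Levels were low, with Hc at 0.187 ± 0.072 CPM in Ctrl and 0.722 ± 0.32 CPM in Upf3b-KO frontal cortex (SD, n = 4 each). Cerebellar C3 was at 0.518 ± 0.14 CPM in Ctrl (n = 4) and 1.38 ± 0.39 CPM in Upf3b-KO (n = 3). C4b, a component cleaved downstream of C1q, was at 52.7 ± 2.2 CPM in Ctrl and 29.1 ± 0.89 CPM in Upf3b-KO frontal cortex (SD, n = 4 each, log2 −0.93, adjusted p = 2.16e-14). Cerebellar C4b was at 14.2 ± 0.93 CPM (n = 4) and 14.5 ± 0.7 CPM (n = 3, log2 −0.013, adjusted p = 0.888). C1ra, a protease of the C1 complex, did not pass in either tissue (log2 −0.26 and −0.26). C7, a component of the membrane attack complex, was at 0.243 ± 0.2 CPM in Ctrl and 0.668 ± 0.23 CPM in Upf3b-KO frontal cortex (log2 1.37, adjusted p = 0.0193) and was listed at 0 in Ctrl cerebellum.

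Of 10 complement regulators tested, 4 were higher and 3 lower in Upf3b-KO frontal cortex, and 3 were higher and 2 lower in cerebellum. Cd59a, an inhibitor of the membrane attack complex, rose from 6.35 ± 0.34 to 29.6 ± 0.93 CPM in frontal cortex (SD, n = 4 each, log2 2.14, adjusted p = 2.7e-17). In cerebellum it rose from 14.3 ± 1.1 CPM (n = 4) to 75.96 ± 0.9 CPM (n = 3, log2 2.36, adjusted p = 3.01e-18). Clu, the chaperone clusterin, and Csmd1 were lower in frontal cortex (log2 −0.26 and −0.32) and did not pass in cerebellum (log2 0.017 and 0.12). Of 9 complement receptors tested, 1 was higher and 3 lower in frontal cortex, and 4 were higher and 2 lower in cerebellum. The frontal cortex counts became 2 higher without Ctrl library 2 or Upf3b-KO library 4, and 1 lower without Ctrl library 2 or Upf3b-KO library 3, and with library totals 3 were higher and 1 lower. In cerebellum 1 was lower with library totals. Itgb2, the partner chain of Itgam, rose in cerebellum (log2 0.63, adjusted p = 0.000353), and Megf10, a phagocytic receptor of astrocytes, fell there (log2 −0.35, adjusted p = 1.09e-07). Cd93 was the receptor gene higher in frontal cortex (log2 0.33), beside lower C3ar1, Cr2 and Lrp1, and these were named after their values were seen.

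**Figure D5:**
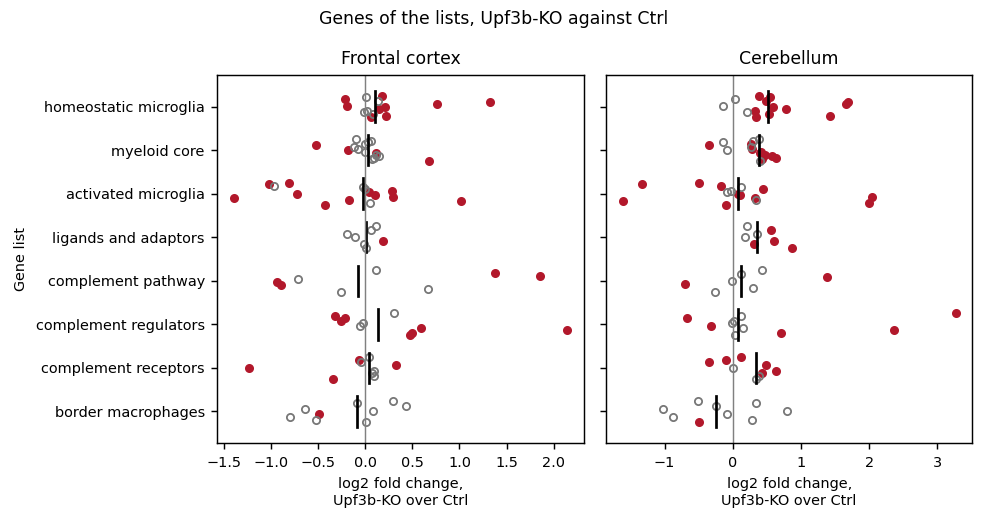
Log2 difference between Upf3b-KO and Ctrl of the genes of the lists in frontal cortex and cerebellum, with filled points for genes that passed at an adjusted p under 0.05 and lines for medians. In cerebellum the medians stand at 0.51 for homeostatic microglia and at 0.385 for the myeloid core.

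Within a library the members did not all keep the same proportions. The summed CPM of the C1q genes over that of Cx3cr1, P2ry12 and Tmem119 was 0.904 to 0.962 in Ctrl and 0.98 to 1.02 in Upf3b-KO frontal cortex, which did not overlap. In cerebellum it was 1.14 to 1.34 in Ctrl and 1.24 to 1.39 in Upf3b-KO, which overlapped, and each cerebellar library lay above each library of frontal cortex. Aif1 over Csf1r was 0.07 to 0.0757 in Ctrl and 0.0999 to 0.115 in Upf3b-KO frontal cortex, without overlap, and 0.0457 to 0.0706 and 0.0634 to 0.0743 in cerebellum, with overlap. Trem2 over Csf1r overlapped between genotypes in both tissues. The 9 genes summed to 443.0 ± 4.7 CPM in Ctrl and 480.7 ± 4.2 CPM in Upf3b-KO frontal cortex (SD, n = 4 each), and to 141.0 ± 3.4 CPM (n = 4) and 188.8 ± 3.6 CPM (n = 3) in cerebellum.

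Genes with the most similar profile over the 15 libraries were found by the root mean square difference of centred log2(CPM + 0.1) values, taken over the 11982 genes whose mean reached 5 CPM. The nearest to the mean profile of the C1q genes were Zmiz2, Jakmip1, Stmn1, Git1 and Sh3bgrl3, at 0.0688 to 0.0784, against a median of 0.76 over all genes. The nearest to the mean profile of Cx3cr1, P2ry12 and Tmem119 were Grm3, Otulinl, Dynll1, P2ry13 and Caly, at 0.0703 to 0.0922, against a median of 0.914. Of Csf1r, Trem2 and Aif1, Csf1r was nearest to both profiles, at rank 22 and rank 10, and Aif1 was farthest, at rank 1063 and rank 411. The measure includes the difference between the tissues.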

How the data were processed

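Frontal cortex and cerebellum RNA was depleted of rRNA and sequenced as paired reads. The authors deposited RSEM expected counts per Ensembl transcript on GRCm39, and the submitters' processing notes name STAR 2.5.2b. The strand setting of counting was not given in the sources used here. Here the expected counts were rounded and summed per gene with GENCODE vM39, which matched 141102 of 142435 transcripts. Transcript lengths, starts and coding ends are also those of GENCODE vM39, a release other than the one the study names. Low counts were filtered with filterByExpr (minimum count 10, total 15), libraries were scaled by TMM, and edgeR 4.0.16 quasi-likelihood tests (R 4.3.3) were run over all genes within each tissue, with Benjamini-Hochberg adjustment. Tissue and interaction tests used the 15 deep libraries. The alternatives were DESeq2 1.42.0, other scalings, filters, a replicate block, inclusion of the low-depth library and leaving out each library. The scripts were tested on simulated data.

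Members and lists were chosen with earlier results of these data known. Genes eligible to be named were all 9 members, transcripts with a group mean of at least 1 CPM, up to 3 genes per list with the smallest adjusted p by genotype or between tissues in Ctrl, and the 5 genes nearest to each profile. Of the lists of other cell types several eligible genes are given by counts and sums only, and 1 gene of another list is not reported here. Genes named outside this rule are marked as such. Of 15 homeostatic genes 14 were matched. Promoter windows came from the GRCm39 genome.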

Additional observations from a re-analysis of the deposited data

Results flagged for a closer look

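The genotype difference differed between the tissues for 6 of the 9 genes by the interaction test of edgeR, with a larger log2 value in cerebellum, as for 24.2% of all genes. The interaction values were 0.34 for P2ry12, 0.43 for Tmem119, 0.30 for Csf1r, 0.37 for C1qa, 0.37 for C1qb and 0.27 for C1qc. Each of these 6 genes was higher in 3 of 3 deep Upf3b-KO libraries of cerebellum than in any Ctrl library, as for 36.3% of all genes.

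The Upf3b-KO cerebellum library of 64981 counts entered only the alternative fits run with it included. It held 13 counts of the 9 genes, a sum of 200.1 CPM with an exact 95% Poisson interval of 106.5 to 342.1 CPM. That interval covers the 184.8 to 191.7 CPM of the other 3 libraries. C1qc was at 76.9 CPM there, from 5 counts, with an exact 95% Poisson interval of 24.98 to 179.6 CPM that covers counting error only. The other 3 libraries of the group were at 21.4 to 22.3 CPM, below its lower end, and the intervals of the other 8 genes covered the values of their group. No sample stood apart in the 27 groups of 4 examined, of which chance would flag about 1 in 20.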

How the results depend on the processing

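At gene level the call of each member was kept in each comparison under every alternative run, except with library totals in frontal cortex, where P2ry12 lost its call and C1qb and C1qc gained one. The transcript counts moved more. In frontal cortex 2 transcripts of the members passed, 1 without the filter on low counts, and 1 to 2 with a library left out. In cerebellum 8 passed, and 5 to 7 with a library left out. The cause was not tested. Counts of list genes called, each of few genes, moved by over 1.5 times in 55 combinations of list, comparison and alternative. Members were covered by as few as 59 counts in a library, for Aif1.

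Correlations of same-numbered deviations were −0.0405 to 0.0356. Spread that is technical in part can hide shared animals, so these values do not show whether replicate numbers pair libraries. With the replicate block, 0 transcripts of the members passed in frontal cortex and 1 in cerebellum, and over all transcripts 3783 in place of 6920 and 4643 in place of 10025. Among list genes by genotype, the block left 1 myeloid gene in place of 2 lower in frontal cortex and 0 in place of 1 complement pathway gene lower in cerebellum. At gene level the block changed no member's call, with 4, 8, 9, 9 and 6 members passing in frontal cortex, in cerebellum, between tissues in Ctrl and in Upf3b-KO, and by the interaction.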
